A study of Arabidopsis thaliana and Setaria viridis and Zea mays with 22 samples.

Results

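The cells described here are those of the Arabidopsis thaliana root tip that the authors named 8_Initials_QC, the initials and quiescent center of the root meristem. They were chosen by that name alone, over all libraries, after cells listed more than once in 1 library had been reduced to their first listing. They numbered 1667 of 32790 cells, or 5.08%, and were the 9th most numerous of 17 named types. The name covered exactly 1 of 22 clusters, cluster 8. Of the 1667 cells, 766 came from protoplasts and 901 from nuclei, so that 54.0% were nuclei, against 46.1% of all cells.

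The quiescent center is a small group of rarely dividing cells at the centre of the root stem cell niche. The initials around it are the stem cells whose divisions supply the cell files of the root and the root cap, and contact with the quiescent center keeps them from differentiating. WOX5, a homeobox transcription factor, marks the quiescent center, and PLT1, a transcription factor of the PLETHORA family, marks the niche and the meristem around it. Single-gene expression was not analysed here, so the name of the cells was not set against WOX5 or PLT1, and what follows rests on numbers of cells and on the UMIs (counted transcript molecules) and detected genes of each cell.

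The study set single protoplasts beside single nuclei of the root meristem on the 10x Chromium 3′ platform. Protoplasts are cells freed by enzymes that digest the cell wall, and nuclei were released in a lysis buffer. There were 6 protoplast and 3 nuclei libraries, both from Col-0 root tips cut at 150 µm. The tips were collected 7 days after transfer to growth chambers, whereas the age tag of each sample says 10 days, and no treatment is labelled. Chemistry version 2 is labelled for all protoplasts and version 3 for all nuclei, so preparation and labelled chemistry cannot be told apart. The 6 protoplast libraries are called by their deposited names, ctr1, ctr3248V3, ctr4h, ctr914, ical1 and ical32hV3, and no label explains these names. The labels do not say whether each library had its own planting. The p-values below therefore measure only how far these libraries vary, which may be technical.

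Protoplast libraries held 1085 to 3827 cells and 50723576 to 138202792 UMIs, and nuclei libraries held 4561 to 5396 cells and 16761417 to 23093915 UMIs. The lowest cell of a protoplast library had 10002 to 15068 UMIs, whereas the lowest nucleus had 1150 to 1211 UMIs, so the preparations begin at different minima. The fewest detected genes in a cell were 1669 to 2474 in protoplast libraries and 1001 in every nuclei library. Some features of the libraries bear on the results. By its barcode endings, ctr1 joined 2 captures of 1660 and 1632 cells that shared 4 barcodes. Barcodes shared with the nuclei numbered 25, 7, 18 and 10 in 4 protoplast libraries (ctr3248V3, ctr4h, ctr914 and ical32hV3, in this order). With a barcode list in common with the nuclei, 8.36, 5.31, 8.49 and 7.38 would be expected. In ctr1 and ical1 they numbered 0, where such a list would give 7.30 and 2.41. All protoplasts carry the same chemistry label, so the label may not hold for every protoplast library. Which chemistry each library had was not tested. Over all 36 pairs of libraries, 0 to 11 barcodes were shared, at most 0.292% of the smaller library, and at most 1 was shared among the initials of a pair.

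The repeated listing of ical1 showed how often the same cell received the same name again, but not whether the name was right. All 1085 cells of ical1 were listed 2 times with equal UMIs and equal detected genes, and 95.9% carried the same type name both times. The initials were named in 58 cells of the first listing and 59 of the second, with 54 cells so named in both and 63 in either. Thus 93.1% of the cells first named initials had that name again, the 14th highest share among the 17 types. Of the 4 cells that lost the name, 2 were called 9_Columella_LRC_Indertermined, 1 was called 2_12_15_19_Initials_Epidermis (initials grouped with epidermis, here epidermal initials) and 1 was called 16_Undertermided. Of the 5 that gained it, 2 had been 1_3_G2MphaseCells, which are cells in the G2 and M phases of division, and 1 each had been 6_LRC, 4_To_determined and 0_Young_Columella. The 9 cells were thus exchanged with dividing cells, epidermal initials, root cap types and types without a tissue name.

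The share of initials among the listed cells was compared first. No protoplast under 10002 UMIs is listed, so this share does not measure how fully the stem cell niche was recovered. Initials made up 4.13% of ctr1 (95% Wilson interval 3.50 to 4.87), 6.35% of ctr3248V3 (5.61 to 7.17) and 3.14% of ctr4h (2.51 to 3.91). They made up 2.72% of ctr914 (2.25 to 3.28), 5.35% of ical1 (4.16 to 6.85) and 4.63% of ical32hV3 (3.97 to 5.40). In nuclei they made up 4.43% of Nuclei_1 (3.90 to 5.03), 6.42% of Nuclei_2 (5.75 to 7.17) and 7.04% of Nuclei_3 (6.39 to 7.76). The groups overlapped: ctr3248V3 and ical1 lay above Nuclei_1, and only Nuclei_2 and Nuclei_3 lay above every protoplast library. These intervals cover counting error only.

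**Figure D1:**
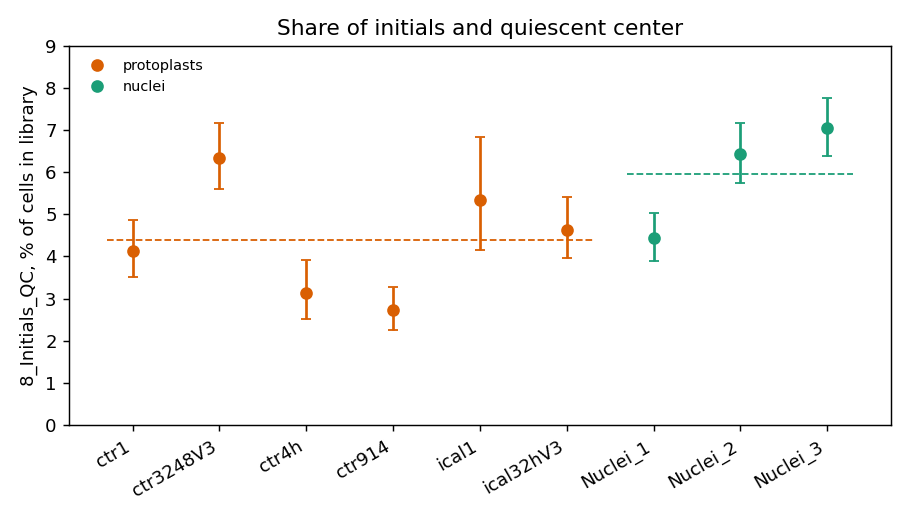
Share of initials and quiescent center in each library, in percent of its cells, with protoplast libraries on the left and nuclei libraries on the right. Points are libraries, bars are 95% Wilson intervals and dashed lines are the means of 4.38% in protoplasts and 5.97% in nuclei. The preparations overlap between 4.43% and 6.35%.

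The mean share was 4.38% ± 1.36 in protoplasts (SD, n = 6) and 5.97% ± 1.36 in nuclei (SD, n = 3). On the log2 scale the difference, protoplasts over nuclei, was −0.45 (SE 0.33, 95% interval −1.17 to 0.28), a fold of 0.734 (0.444 to 1.21), which did not pass edgeR's quasi-likelihood test (Benjamini-Hochberg adjusted p = 0.291). In the same fit 35.3% of the types were called. The difference grew with the minimum of UMIs in protoplasts, while all nuclei were kept. It was −0.61 from 15068 UMIs up and −0.72 from 20000 UMIs up (edgeR adjusted p = 0.217 and 0.102). By mean share the initials were 11th of 17 types in protoplasts, between 16_Undertermided at 4.39% and 10_Pericycle at 4.02%, and neither neighbour was separated from them by more than the SDs of 2.25 and 5.21 percentage points. In nuclei they were 5th, between 11_18_Endocortex, at 8.73% to 13.1%, and 10_Pericycle, with a mean of 5.32%, and the gap to 10_Pericycle was smaller than the SD of 1.36 among the initials.

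The root cap types were described next, after the data had been seen. There were 5 types named for the columella or the lateral root cap (LRC), the tissues that sheathe the root tip. Together they made up 22.4% to 56.3% of protoplast libraries and 9.81% to 20.7% of nuclei libraries, without overlap. Singly, edgeR called 6_LRC (7.40-fold, protoplasts over nuclei) and 14_Columella (4.37-fold). It did not call 0_Young_Columella, 9_Columella_LRC_Indertermined or 7_Young_LRC (edgeR adjusted p = 0.166, 0.313 and 0.498). Among the cells outside those types, initials made up 7.54% ± 3.89 in protoplasts (SD, n = 6) and 7.26% ± 2.08 in nuclei (SD, n = 3). The protoplast mean was raised by ctr3248V3, which lay above every other library of both preparations. The other protoplast libraries held 6.32% in ctr1, 4.69% in ctr4h, 3.50% in ctr914, 8.59% in ical1 and 7.61% in ical32hV3. The nuclei libraries held 4.91%, 7.98% and 8.88%. With root cap types left out of the total, the log2 difference turned to 0.05 (edgeR adjusted p = 0.919). Whether this value holds without ctr3248V3 was not tested.

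Libraries of one preparation differed in the share of initials by more than counting error. The chi-square of their cell numbers was 72.9 on 5 degrees of freedom over the protoplast libraries, whose highest share was 2.34-fold the lowest. Over the nuclei libraries it was 34.5 on 2 degrees of freedom, with a 1.59-fold range. The 2 captures of ctr1, by contrast, held 4.16% initials (95% Wilson interval 3.30 to 5.23) and 4.11% (3.25 to 5.18).

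Initials were next counted per cell of the 2 types nearest to them by name, which does not depend on the total. Per dividing cell of 1_3_G2MphaseCells there were 0.379 initials in ctr1, 0.745 in ctr3248V3, 0.391 in ctr4h, 0.207 in ctr914, 0.487 in ical1 and 0.348 in ical32hV3. The nuclei libraries held 0.267, 0.379 and 0.437. The log2 difference, protoplasts over nuclei, was 0.16 (exact two-sided permutation test over 84 splits, p = 0.702, adjusted over both ratios 0.702). The 6 protoplast libraries spanned the whole range of the nuclei.

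Per cell of 2_12_15_19_Initials_Epidermis there were 0.228 initials in ctr1, 0.548 in ctr3248V3, 0.306 in ctr4h, 0.128 in ctr914, 0.354 in ical1 and 0.246 in ical32hV3. The nuclei libraries held 0.288, 0.395 and 0.419. The log2 difference was −0.40 (exact two-sided permutation test, p = 0.417, adjusted 0.702). It moved with the minimum of UMIs: among protoplasts of 20000 UMIs or more it was −1.41 (exact permutation test, adjusted p = 0.0238), while all nuclei were kept. The part of that minimum in the ratio was not tested further.

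The place of the initials along the range of UMIs was then described by dividing the cells of each library into 4 equal bins by UMIs. Initials averaged 5.40%, 4.37%, 4.54% and 3.22% of the cells in protoplast bins, in the order lowest to highest UMIs. In nuclei they averaged 7.14%, 5.39%, 4.63% and 6.70% in the same order. In ctr3248V3 they made up 11.5% of the lowest bin (95% Wilson interval 9.59 to 13.7) and 2.65% of the highest (1.80 to 3.89). In ctr914 the order was the opposite, with 2.51% in the lowest bin (1.69 to 3.70) and 4.08% in the highest (3.00 to 5.52), although these intervals overlapped. In nuclei the third bin held the lowest share in all 3 libraries, at 3.03%, 4.56% and 6.30%, but in each its Wilson interval overlapped that of the next lowest bin. The initials were found from the lowest to the highest bin of every library.

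**Figure D2:**
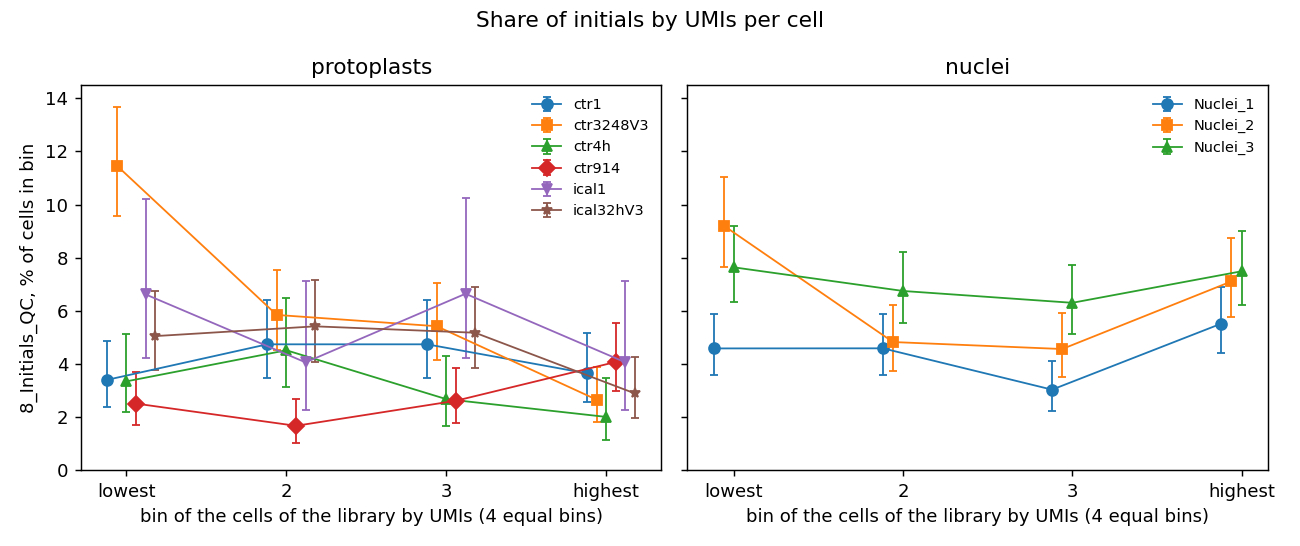
Share of initials among the cells of each of 4 bins of a library by UMIs per cell, for protoplast libraries on the left and nuclei libraries on the right, with 95% Wilson intervals. In protoplasts ctr3248V3 runs down to 2.65% in the highest bin and ctr914 lies at 4.08% there, and in nuclei the third bin is the lowest in all 3 libraries.

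Per cell, the median UMIs of the initials were 26107 in ctr1, 13973 in ctr3248V3, 14511 in ctr4h, 31754 in ctr914, 27915 in ical1 and 15327.5 in ical32hV3. In nuclei they were 2253, 2519 and 2908.5. Every protoplast library lay above every nuclei library. Given these nuclei medians the order could not have been otherwise, since no protoplast had fewer than 10002 UMIs. Median detected genes were 6165, 4710, 4152, 5832.5, 6537 and 4819.5 in the protoplast libraries in the same order, and 1684, 1842 and 2028 in nuclei.

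**Figure D3:**
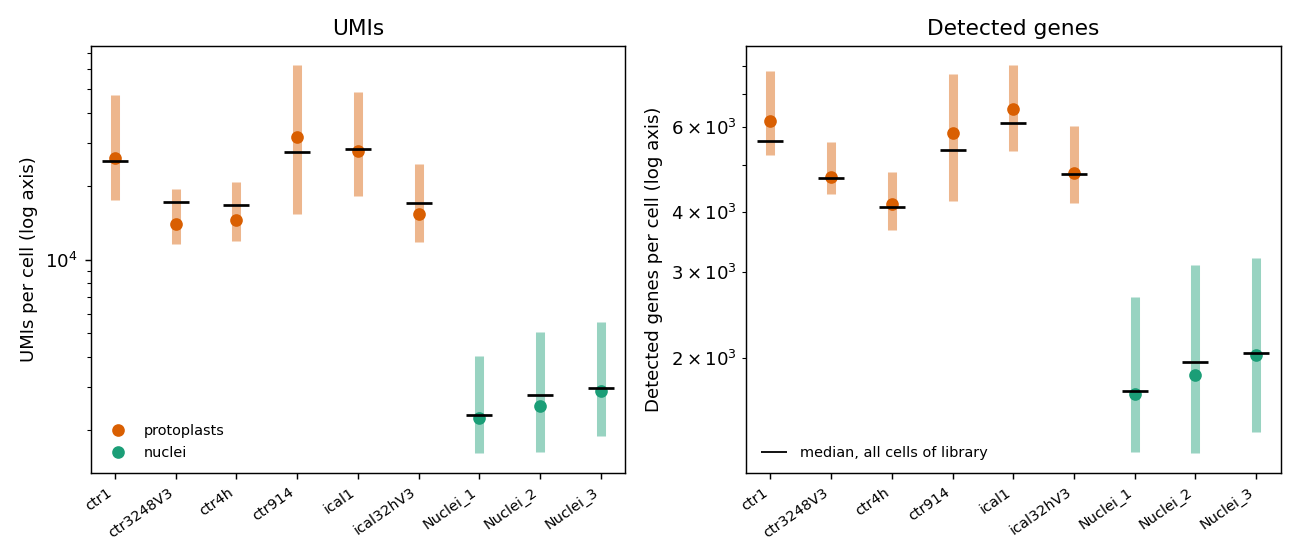
UMIs (left) and detected genes (right) per cell of the initials, on log axes, by library, protoplasts before nuclei. Points are medians, thick bars run from the lower to the upper quartile, and black lines are library medians over every type. Initials of ctr3248V3 have a median of 13973 UMIs, below the library's 17291.5, and those of ctr914 have 31754, above the library's 27603.

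To remove the depth of a library, the median log2 UMIs of a type were taken relative to the median over the types of the same library. The relative UMIs of the initials were 0.00 in ctr1, −1.002 in ctr3248V3, −0.35 in ctr4h, 0.73 in ctr914, −0.03 in ical1 and −0.34 in ical32hV3. Nuclei gave −0.05, −0.25 and −0.10. Initials of ctr914 thus stood above the middle of their library and those of ctr3248V3 well below it, with the nuclei close to 0.

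The mean of relative UMIs was −0.17 in protoplasts (log2, SE 0.16, 95% interval −0.53 to 0.20), which did not pass limma's test (adjusted p = 0.378), where 64.7% of types were called. In nuclei it was −0.13, with an SD of 0.10 among the 3 libraries. The limma SE, pooled over both preparations, was 0.23 (limma adjusted p = 0.701), and 23.5% of types were called. That share is 4 of 17 types, against 1 without Nuclei_1, 1 without Nuclei_2 and 0 when centred on all cells. The difference, protoplasts minus nuclei, was −0.03 (SE 0.29, 95% interval −0.66 to 0.59, limma adjusted p = 0.968), with 47.1% called. Single libraries decided the protoplast value: without ctr914 it was −0.35 (limma adjusted p = 0.00278) and without ctr3248V3 it was 0.00. The SD of 0.57 across protoplast libraries was the largest of the 17 types, spanning 3.32-fold from the lowest to the highest library.

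Relative detected genes were −0.35 in ctr3248V3, 0.31 in ctr914 and 0.00 in the other protoplast libraries, where the initials were themselves the middle type. Nuclei gave −0.03, −0.16 and 0.00. The mean was −0.01 in protoplasts (log2, SE 0.06, limma adjusted p = 0.923, 64.7% of types called) and −0.06 in nuclei (SE 0.09, adjusted p = 0.616, 23.5% called). The difference between preparations was 0.06 (95% interval −0.19 to 0.30, limma adjusted p = 0.759, 23.5% called). The protoplast value lay so near 0 that its sign turned under several settings, and among protoplasts of 20000 UMIs or more it was 0.10 (limma adjusted p = 0.0445).

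The spread of UMIs among the initials themselves also differed between libraries. The interquartile range of log2 UMIs averaged 1.25 ± 0.47 in protoplasts (SD, n = 6), the 8th widest of 17 types, and 1.50 ± 0.15 in nuclei (SD, n = 3), the 2nd widest after 13_Trichoblast at 1.54. The range was widest in ctr914 at 2.02 and narrowest in ctr3248V3 at 0.75. The initials of ctr914 ran from 15418 UMIs at the lower quartile to 62398 at the upper, and those of ctr3248V3 from 11545 to 19416. The lowest cell had 10011 UMIs in ctr914 and 10010 in ctr3248V3, close to the lower quartile of the latter. The part of the minima in these ranges was not tested.

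The measure on which the initials ranked highest in protoplasts was the number of detected genes at a given number of UMIs, which asks over how many genes the transcripts of a cell are spread. In each library a quadratic curve of log2 genes on log2 UMIs was fitted to all cells, and a type was given the median of its cells' distances from that curve. In protoplasts the initials lay above the curve in 6 of 6 libraries, by 0.18 in ctr1, 0.25 in ctr3248V3, 0.10 in ctr4h, 0.05 in ctr914, 0.21 in ical1 and 0.11 in ical32hV3. In nuclei they lay 0.03, 0.02 and 0.03 above it. All 6 protoplast values exceeded all 3 nuclei values, and ctr914 lay nearest to the nuclei. This separation was not particular to the initials. The dividing cells also showed it, with 0.0314 or more in protoplast libraries and 0.0222 or less in nuclei libraries. So did some root cap types, among them both young ones.

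The mean in protoplasts was 0.15 (log2, SE 0.02, 95% interval 0.10 to 0.20), or 1.11-fold more genes (1.07 to 1.15), with a limma adjusted p of 0.000988. In that fit 47.1% of the types were called in either direction and 35.3% as higher. The initials had the highest mean of the 17 types, and ranked 1st in 4 of the 6 libraries, 2nd in ctr1 and 6th in ctr914. Among protoplasts of 20000 UMIs or more they ranked 2nd. The next types were young root cap, 7_Young_LRC at 0.12 and 0_Young_Columella at 0.12, and their distance from the initials was smaller than the SD of 0.08 among the initials' libraries. The type with the lowest mean was 14_Columella, the differentiated centre of the root cap, at −0.15 ± 0.18 (SD, n = 6). It lay above the curve in ctr914, at 0.11, and in ctr4h, at 0.02. Since the types are clusters made from these same cells, a type's distance from the other cells is not independent of its naming.

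**Figure D4:**
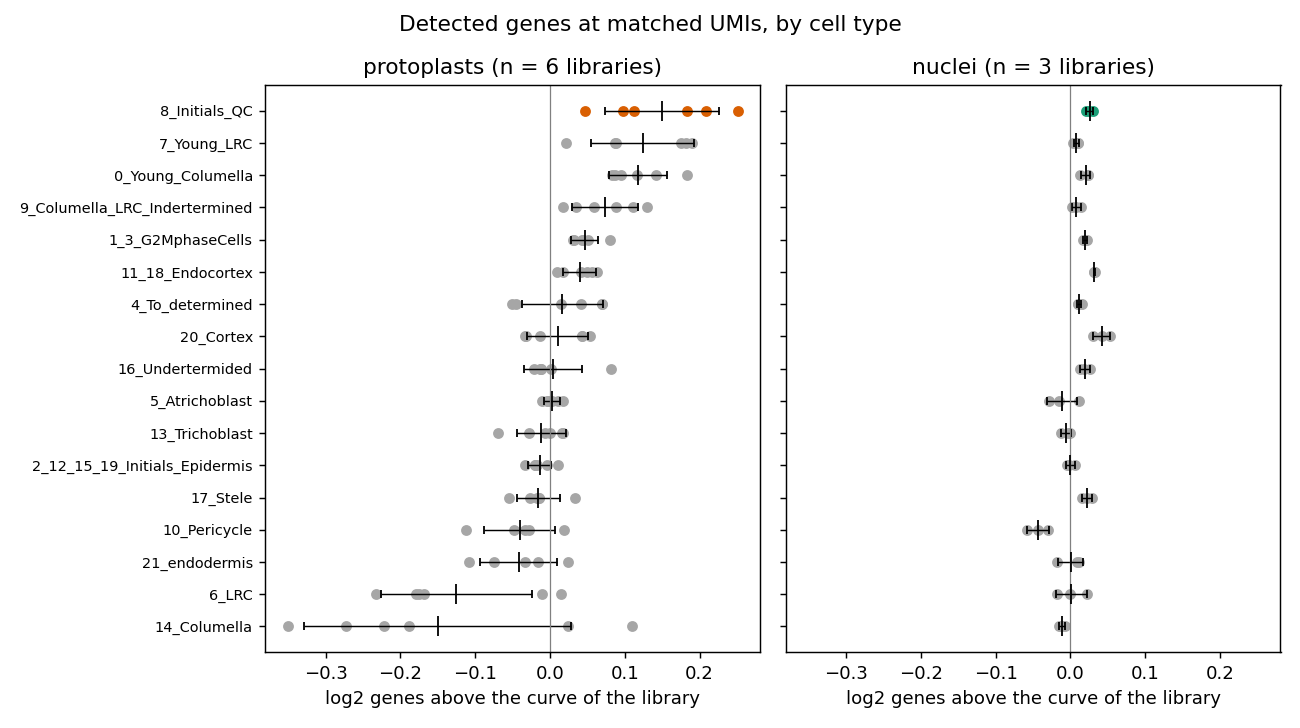
Detected genes at matched UMIs by cell type, as log2 distance from the curve of the library, in protoplasts (left) and nuclei (right). Points are libraries, vertical ticks are means and horizontal bars are SDs, and types are in the order of the protoplast mean. The initials lie at the top in protoplasts with a mean of 0.15, and 3rd in nuclei with a mean of 0.03.

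In nuclei the mean of the initials was 0.03 (SE 0.03, limma adjusted p = 0.879), the 3rd highest, after 20_Cortex at 0.04 and 11_18_Endocortex at 0.03. This SE pools both preparations, whose SDs for the initials were 0.0768 in protoplasts and 0.00484 in nuclei. The limma p therefore cannot show that the initials had no excess in nuclei. Limma called 0% of the types (1 of 17 at an unadjusted p under 0.05). By exact permutation 0 were called, but 3 libraries cannot give an exact p below 0.25. With a straight line, or in a fixed window of 2000 to 4000 UMIs, the initials ranked 7th in nuclei. All types lay closer together in nuclei, between −0.04 in 10_Pericycle and 0.04 in 20_Cortex. Every nuclei library began at 1001 detected genes and the protoplast libraries at 1669 to 2474. The most detected genes were 7981 in a nucleus and 12819 in a protoplast. The part of these limits in the closeness, or in the difference between preparations, was not tested. The difference, protoplasts minus nuclei, was 0.12 for the initials (SE 0.04, 95% interval 0.03 to 0.22), the largest of the 17 types, followed by 7_Young_LRC at 0.12 and 0_Young_Columella at 0.10. The initials ranked 2nd from 15068 UMIs up, from 20000 UMIs up, without ctr3248V3, without ctr4h and in the fixed window. The p for the initials of 0.0140 in limma became 0.0796 after adjustment and did not pass, with 5.88% of types called, which was 0_Young_Columella alone (limma adjusted p = 0.0323). The median UMIs of the initials were 13973 or more in every protoplast library and 2908.5 or less in every nuclei library, and the part of depth in this difference was not tested.

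The size of the protoplast value depended on how UMIs were matched. Among cells of 20000 to 40000 UMIs only, initials of ctr1 had a median of 6245 genes, against 5806 over all cells of the library in that window. The medians were 6323.5 and 5703.5 in ctr3248V3, 5395.5 and 5165 in ctr4h, and 6551 and 5804 in ical1, in the order initials, all cells. In ctr914 they were 5488 and 5512.5, and in ical32hV3 6038.5 and 6016, a smaller difference than in the other libraries. UMIs were only roughly matched in the window: initials had a median of 25320.5 UMIs in ical32hV3, 28775 in ctr914 and 28898 in ical1, against 28024.5, 28989.5 and 26382 over all cells in the window. The mean log2 value in this window was 0.08 (limma adjusted p = 0.0417), below the value from the curve by more than 1.5 times. For nuclei the window was 2000 to 4000 UMIs, so the preparations were not matched to each other in depth. With these windows the difference between preparations was 0.06 (limma adjusted p = 0.517). The window held few initials, from 12 in ctr4h to 44 in ctr1.

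The root cap types also entered the curve. With the curve fitted to the other cells only, a setting chosen after seeing the data, the protoplast mean was 0.11 (limma adjusted p = 1.87e-05) and the difference between preparations was 0.09 (limma adjusted p = 0.00939). In the 4 protoplast libraries that share barcodes with the nuclei the mean was 0.13 (limma adjusted p = 0.0130). An exact test by sign changes over the 6 libraries gave p = 0.03125, the smallest that 64 sign changes allow, and 0.0885 after adjustment over the types.

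Within each library the initials were finally set against the 2 types nearest by name. These comparisons were chosen after the data had been seen. Their UMIs were below those of the dividing cells in all 6 protoplast libraries, by a log2 difference of −0.46 in ctr1, −0.88 in ctr3248V3, −0.65 in ctr4h, −0.29 in ctr914, −0.81 in ical1 and −0.68 in ical32hV3. The mean was −0.63 ± 0.22 (SD, n = 6), a fold of 0.647 (exact sign-change test, p = 0.03125, adjusted over 4 tests 0.03125). In nuclei the differences were −0.20, −0.36 and −0.32 (mean −0.30, exact p = 0.25, the smallest that 3 libraries allow).

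Against the epidermal initials the UMIs of the initials were −0.77 in ctr1, −2.23 in ctr3248V3, −1.10 in ctr4h, −0.24 in ctr914, −1.22 in ical1 and −1.38 in ical32hV3 on the log2 scale. The mean was −1.16 ± 0.66 (SD, n = 6), a fold of 0.448 (exact sign-change test, adjusted p = 0.03125). The nuclei gave −0.05, −0.25 and −0.14, with a mean of −0.15. The preparations were not separated by the exact permutation test over 84 splits for either type: protoplasts minus nuclei was −0.33 against dividing cells and −1.01 against epidermal initials (adjusted p = 0.0595 for both). Without ctr914 they were −0.40 and −1.19 and passed (exact permutation test, adjusted p = 0.0357 for both). Among protoplasts of 20000 UMIs or more the mean difference from epidermal initials was −0.45 and no longer passed (exact sign-change test, adjusted p = 0.0938).

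At matched UMIs the order was the other way. Initials lay above dividing cells in all 6 protoplast libraries, by 0.02 in ctr914 to 0.17 in ctr3248V3, with a mean of 0.10 ± 0.06 (log2, SD, n = 6) or 1.07-fold more genes (exact sign-change test, adjusted p = 0.03125). They lay above epidermal initials by 0.07 to 0.25, with a mean of 0.16 ± 0.08 or 1.12-fold (SD, n = 6, exact sign-change test, adjusted p = 0.03125). In nuclei the means were 0.01 and 0.03, in the same direction in 3 of 3 libraries. In the window of 20000 to 40000 UMIs the protoplast means were 0.05 and 0.04 and did not pass (exact sign-change test, adjusted p = 0.219 and 0.125).

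**Figure D5:**
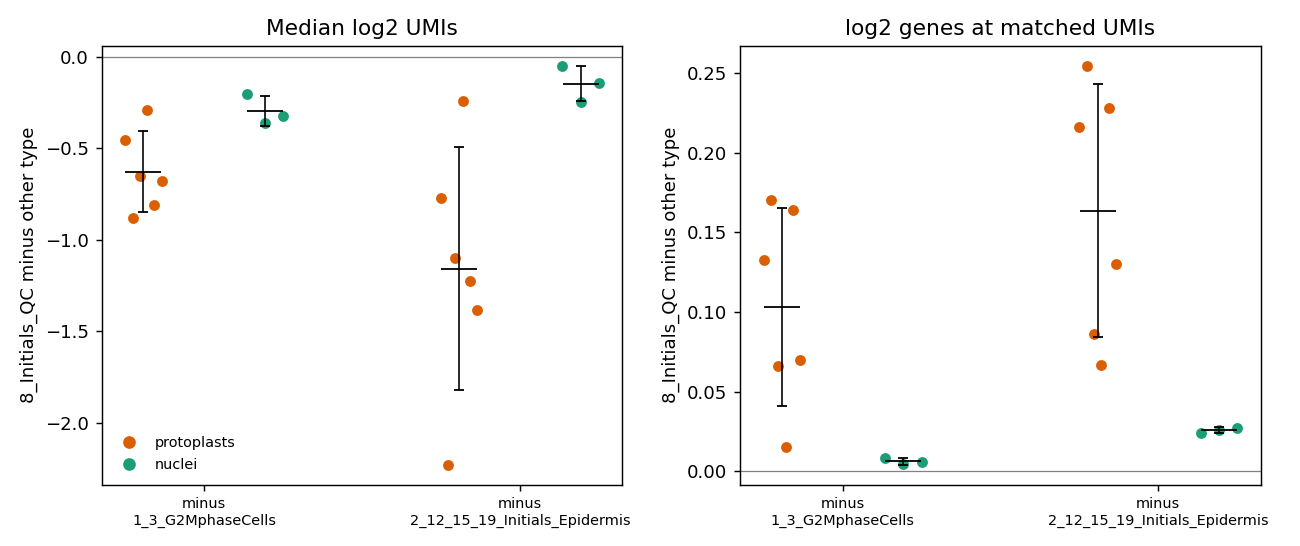
Initials minus the dividing cells (1_3_G2MphaseCells) and minus the epidermal initials (2_12_15_19_Initials_Epidermis) of the same library, for median log2 UMIs (left) and log2 genes at matched UMIs (right), protoplasts left of nuclei. Points are libraries and bars are means with SD. All 9 libraries lie below 0 for UMIs and above 0 for genes at matched UMIs.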

How the data were processed

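The deposited table gives, for each Arabidopsis cell, counts of UMIs and of detected genes, which are not normalized, with the library, cluster and type name given by the authors. The submitters' processing notes name TAIR10 as the build, with Cell Ranger 5.0.1 and Seurat 4.0 as tools. The columns, per the file headers, come from an integrated set clustered as a whole. Filters on cells and the handling of doublets were not stated in the labels, and doublets were not called again. The grass libraries carry no type names and were not used, and gene-level comparisons were not made.

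For ical1 the first listing of each cell was kept. Protoplast libraries were assigned to their preparation by the deposited table, since their names match no replicate number. The library is the replicate in every test across preparations. The share test was edgeR's quasi-likelihood F-test (version 4.0.16), fitted robustly and without a trend, with the cells of a library as its size. Relative UMIs, relative genes and genes at matched UMIs were tested with limma 3.58.1 (robust eBayes) over types with at least 10 cells in a library, 1 value per library. Limma pooled the residual spread of a type over both preparations, so its SEs for nuclei also reflect the spread among protoplasts. Adjustment over the 17 types was by Benjamini-Hochberg, with a threshold of 0.05, and all tests were two-sided. Ratios and within-library differences were tested by exact permutation. The edgeR share test, limma's protoplast coefficient and the exact permutation tests were first tested on simulated data. Limma's nuclei coefficient, its difference between preparations and DESeq2 were not simulated. DESeq2 1.42.0 was an alternative for shares.

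At 3 counts, a count of 0 cells allows a share of up to 0.0784% to 0.276% in protoplast libraries and 0.0556% to 0.0658% in nuclei libraries. Types named are the initials, the 2 nearest by name, neighbours in an order, the highest and lowest, and those that exchange cells with the initials in the repeated listing. The members, lists and tests were chosen with earlier results of these data known.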

Additional observations from a re-analysis of the deposited data

Results flagged for a closer look

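The difference between initials and dividing cells in genes at matched UMIs was larger in protoplasts than in nuclei, by 0.0970 on the log2 scale (exact two-sided permutation over the 9 libraries, p = 0.0238, adjusted over 4 tests 0.0476). Against epidermal initials it was larger by 0.138 (exact permutation, p = 0.0238, adjusted 0.0476). Both are given here because the effect differed between the preparations. Neither passed in the fixed windows of UMIs, 20000 to 40000 in protoplasts and 2000 to 4000 in nuclei. There they were 0.0421 and 0.0240 (exact permutation, adjusted p = 0.440 for both). Leaving out any single library other than ctr914 also ended both calls (exact permutation, adjusted p = 0.0714 to 0.179). In both differences the 6 protoplast values and the 3 nuclei values did not overlap. The preparations also differ in depth, in the minima of UMIs and detected genes and in labelled chemistry, whose part was not tested.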

How the results depend on the processing

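Of 348 alternative values for 20 results on the initials, 249 kept their direction and their side of the threshold, 21 reversed, 11 newly passed and 67 no longer passed. No paired analysis was possible because the protoplast library names carry no replicate number of the labels. Log2 differences are given throughout, and where no cause is named the cause was not tested. With root cap types out of the total, the share reversed to 0.0511. For relative UMIs, protoplasts minus nuclei reversed to 0.0320 with at least 30 cells a type, 0.00256 centred on all cells, 0.13 from 20000 UMIs up and 0.11 from 15068 UMIs up. Relative genes in protoplasts reversed in the same order of settings to 0.0145, 0.0646, 0.0982 and 0.0366, and with means over cells to 0.0367. Genes at matched UMIs in protoplasts, at 0.15, no longer passed an exact permutation. Their difference from nuclei newly passed with the curve without root cap types (0.0886), means (0.13), a spread for each preparation (0.12), 20000 UMIs (0.10), 15068 UMIs (0.12) and a straight line (0.14). Per dividing cell the ratio reversed to −0.52 from 20000 UMIs up and −0.22 from 15068 UMIs up, and per epidermal initial it passed at −1.41 from 20000 UMIs up.

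All within-library differences kept their sign. Those in protoplasts cannot pass with 4 or 5 libraries, where the exact test has too few sign changes. Against dividing cells, then epidermal initials, UMIs were −0.63 and −1.24 in the 4 libraries sharing barcodes with the nuclei, −0.57 and −1.09 without both libraries named ical, −0.43 and −0.45 from 20000 UMIs up, and −0.55 and −0.81 from 15068 UMIs up. Genes at matched UMIs were 0.0804 and 0.135, 0.0962 and 0.156, 0.0904 and 0.140, and 0.102 and 0.157 under these settings, and 0.0478 and 0.0440 in the fixed window. For genes at matched UMIs, protoplasts minus nuclei no longer passed in the 4 libraries (0.0743 and 0.109), without ical (0.0900 and 0.130), in the window (0.0421 and 0.0240) and with the curve fitted without the type itself (0.101 and 0.153).

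Leaving out each library in turn gave −0.35 to 0.00 (0.000827) for relative UMIs in protoplasts and −0.21 to 0.13 for their difference from nuclei. Relative genes ran from −0.0705 to 0.0629 in protoplasts and −0.00791 to 0.13 for the difference. Genes at matched UMIs, protoplasts minus nuclei, ran from 0.10 to 0.14. The ratio per dividing cell ran from −0.0389 to 0.35. Within libraries, UMIs ran from −0.70 to −0.58 and −1.34 to −0.94 in protoplasts and from −0.40 to −0.28 and −1.19 to −0.80 for the difference between preparations. Genes at matched UMIs ran from 0.0896 to 0.121 and 0.146 to 0.183 in protoplasts, and from 0.0834 to 0.114 and 0.120 to 0.157 for that difference. Relative UMIs in nuclei called 4 types, but 0 centred on all cells and 1 without Nuclei_1 or Nuclei_2. Relative genes, protoplasts minus nuclei, called 4, but 1 centred on all cells, 2 from 15068 UMIs up, 1 without Nuclei_1 and 0 without Nuclei_2. For relative UMIs that difference called 8, but 5 centred on all cells or from either minimum up. Genes at matched UMIs called 8 in protoplasts, but 3 in the window and 5 without ical, and for the difference 1, with 0 to 4 under other settings. By exact permutation these counts were 0, except 7 for relative UMIs, protoplasts minus nuclei; within nuclei no exact p can pass. The number of types called by share was 6, but 0 by exact permutation and 3 without types lacking a tissue name.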
